A study of Mus musculus with 6 samples.

Results

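The genes described are 9 markers of pericytes and other mural cells (Vtn, Rgs5, Pdgfrb, Bgn, Cspg4, Anpep, Abcc9, Acta2 and Tagln) among 19938 genes measured. Vtn and Bgn were selected on their intensities, being far brighter in 1 of the 2 groups compared, and the rest of the list was chosen with results of that comparison known. The differences between groups are therefore given for the members as a description, without a test. Each of the 9 genes had 1 probe set annotated to it alone, and no gene was left out for low signal.

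Pericytes and vascular smooth muscle cells, together called mural cells, surround the endothelial tubes of brain vessels. Endothelial cells recruit them by releasing PDGF-B, which binds the PDGF receptor beta on the pericyte surface, and the recruited cells stabilise the vessel and help to form the blood-brain barrier. Pericytes lie on capillaries and carry little contractile protein, whereas smooth muscle cells lie on arterioles and carry smooth muscle actin and its partners.

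Brain cells of C57BL/6J mice were purified by fluorescence-activated cell sorting into cortical neural progenitors that fluoresced green (GFP+) and neuronal progeny that fluoresced red (RFP+), and RNA of each population was read on 3 whole-transcript arrays. The labels call the RFP+ cells differentiated and give their tissue as brain, and name the cortex only for the GFP+ cells. The promoters behind the reporters and the age of the animals are not stated in the sources used here, and nothing says whether replicates came from separate animals, so errors and p-values measure the spread between these samples, which may be technical. Values are intensities on a linear scale as deposited. Each difference is the mean log2(intensity + 16) of the GFP+ arrays minus that of the RFP+ arrays, given ± its standard error (SE) from a fit over all genes (n = 3 arrays in each group). That fit draws each gene's variance toward a value shared by all genes, so an SE is not the scatter of that gene alone. Folds come from the same scale, where the offset shrinks those of dim genes. Adjusted p-values are those of limma after Benjamini-Hochberg correction, and a gene passed when its value was under 0.05. Olfactory receptor genes, 1027 of them and mostly silent outside the nose, served as a guide to background, and their 95th percentile lay between 199 and 224 on the 6 arrays. The sort separated the labelled cell types: 10 of 10 progenitor markers passed the test as higher in GFP+ arrays and 9 of 9 neuron markers as higher in RFP+ arrays.

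Of the 9 mural genes, 7 were higher on all 3 GFP+ arrays than on any RFP+ array, 0 were lower on all of them, and Acta2 and Tagln overlapped. Among all genes 43.9% did not overlap, 19.9% with GFP+ higher and 24.1% with RFP+ higher. The same 7 members passed the test over all genes as higher in GFP+ and 0 as lower, where 30% of all genes passed in either direction, 13.8% as higher and 16.2% as lower. Since this comparison chose the members, nothing is read from these counts. The members' median log2 difference was 3.47, against -0.08 over all genes tested. In sorted populations, more cells of a type and more RNA per cell cannot be told apart.

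**Figure D1:**
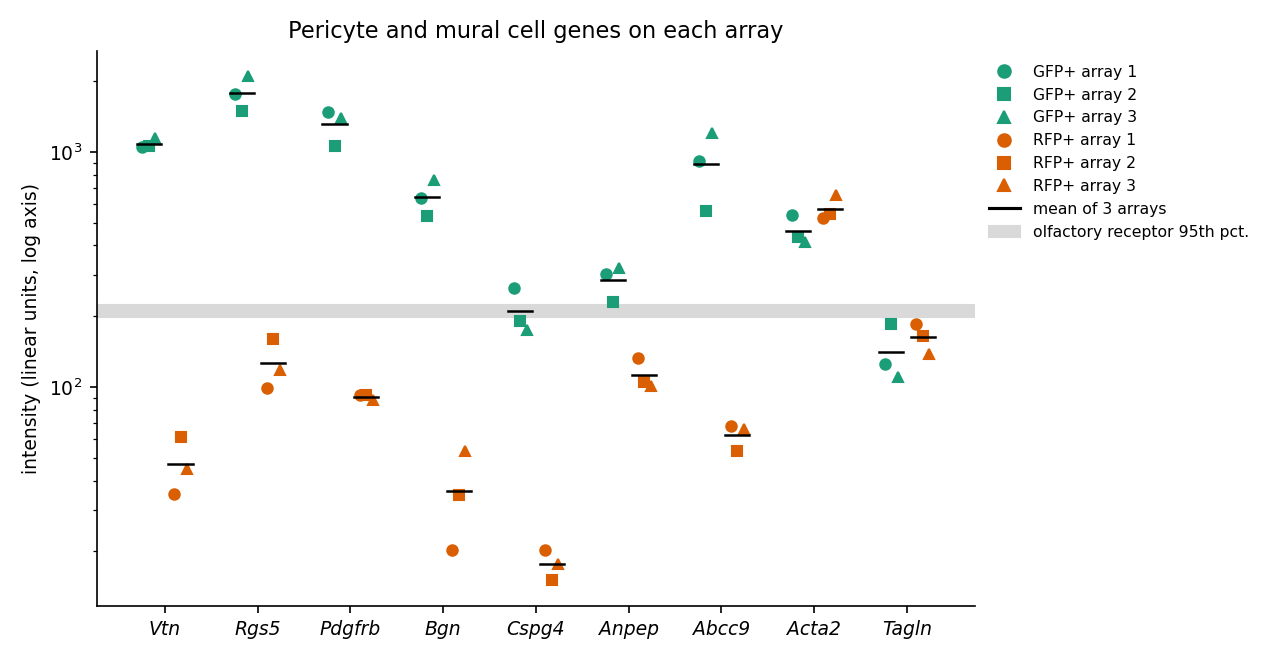
Intensity (log axis) of the 9 pericyte and mural cell genes on each of the 3 GFP+ arrays (green) and 3 RFP+ arrays (orange), with the mean of each group as a black bar and the range of the arrays' olfactory receptor 95th percentiles as a grey band. The first 7 genes are separated between the groups, with every RFP+ value under the band, whereas Acta2 and Tagln overlap.

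Vtn, which encodes the matrix and plasma glycoprotein vitronectin and is one of the most pericyte-enriched transcripts of mouse brain, had intensities of 1047, 1062 and 1148 on the GFP+ arrays, against 34.95, 61.5 and 44.7 on the RFP+ arrays. The GFP+ values lay close together, with a highest to lowest ratio of 1.10, and every RFP+ value was under the median of the olfactory receptor genes on its own array. The log2 difference was 4.15 ± 0.21, or 17.7-fold, and it ranked 1 among all genes. Because the RFP+ level was in the background range, the size of this ratio depends on the offset of 16, and the plain ratio of mean intensities was 23.1.

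Rgs5, a GTPase-activating protein that shortens G protein signalling and a classical pericyte marker, was above the background guide on all GFP+ arrays and below it on all RFP+ arrays. Its intensities were 1765, 1496 and 2103 in GFP+ progenitors, against 99.1, 161 and 118 in RFP+ neurons. The lowest GFP+ array was 9.32 times the highest RFP+ array (log2 difference 3.68 ± 0.22, 12.8-fold). Pdgfrb, the receptor through which pericytes are recruited, had 1473, 1057 and 1394 in GFP+ progenitors, against 92.5, 92.5 and 88.3 in RFP+ neurons. Its RFP+ values spread by only 2.67% (coefficient of variation), and the log2 difference was 3.61 ± 0.20 (12.2-fold).

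Bgn encodes biglycan, a small leucine-rich proteoglycan of the matrix around vessels and in connective tissue. It had intensities of 636, 533 and 757 in GFP+ progenitors, against 20.3, 34.8 and 53.3 in RFP+ neurons (log2 difference 3.69 ± 0.24, 12.9-fold). The RFP+ values of Bgn varied most among the members, with a highest to lowest ratio of 2.62, all below the olfactory receptor median. Cspg4, the transmembrane proteoglycan NG2, is made by pericytes and by oligodendrocyte precursors. Its intensities were 265, 189.95 and 176 in GFP+ progenitors, against 20.2, 15.0 and 17.7 in RFP+ neurons, so that 1 of the 3 GFP+ arrays exceeded the olfactory receptor 95th percentile of its own array. The log2 difference was 2.73 ± 0.21 (6.63-fold) with the offset of 16 and 3.49 with an offset of 1. Anpep, the surface aminopeptidase CD13, had 303, 230.1 and 321 in GFP+ progenitors, against 133, 105 and 101 in RFP+ neurons. It had the smallest difference of the 7 separated genes (1.22 ± 0.21, 2.33-fold), with the lowest GFP+ array at 1.73 times the highest RFP+ array.

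Abcc9 encodes SUR2, the regulatory subunit that joins the pore subunit Kir6.1, encoded by Kcnj8, in the ATP-sensitive potassium channel of mural cells. Abcc9 had intensities of 912, 559.8 and 1203 in GFP+ progenitors, against 68.2, 53.4 and 66.1 in RFP+ neurons (log2 difference 3.47 ± 0.24, 11.1-fold). Among the separated members it varied most within GFP+, with a highest to lowest ratio of 2.15. Its partner Kcnj8, which is the next protein-coding gene to Abcc9 on chromosome 6 in the RefSeq annotation, had 443, 319.5 and 381 in GFP+ progenitors, against 58.5, 53.2 and 77.5 in RFP+ neurons (log2 difference 2.33 ± 0.21, adjusted p = 5.29e-08). The channel's other subunit pair, used by pancreatic beta cells and neurons, went the opposite way. Kcnj11, which encodes the pore subunit Kir6.2, had 223, 232 and 268 in GFP+ progenitors, against 643, 777 and 903 in RFP+ neurons (log2 difference -1.61 ± 0.21, adjusted p = 4.39e-06). Abcc8, which encodes SUR1 and neighbours Kcnj11 on chromosome 7, had 182, 402 and 358 in GFP+ progenitors, against 1757, 1974 and 2219 in RFP+ neurons (log2 difference -2.67 ± 0.25, adjusted p = 8.51e-08). For each of the 4 subunit genes the 2 groups did not overlap.

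**Figure D2:**
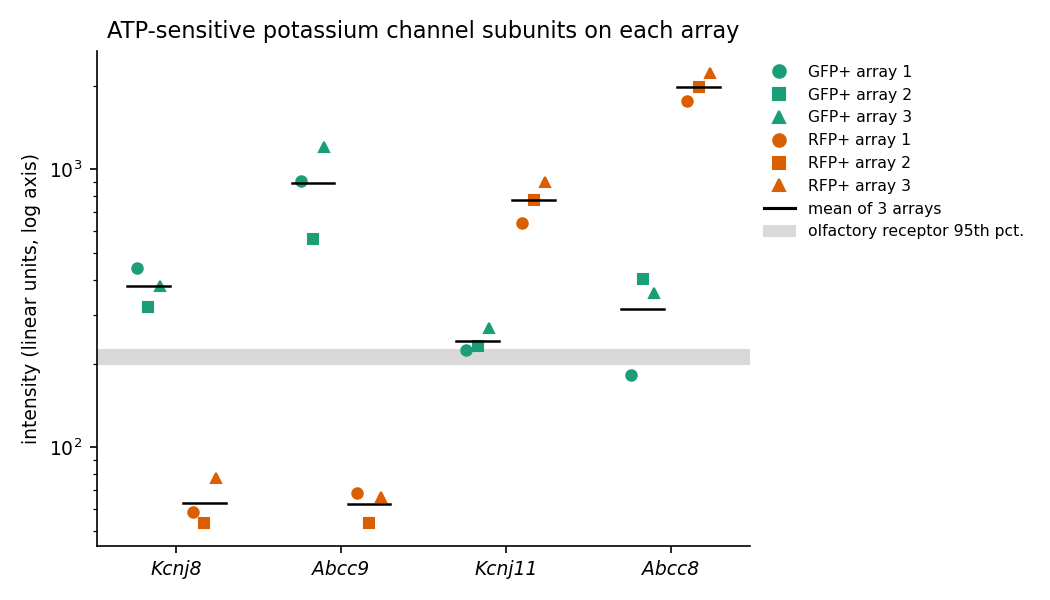
Intensity (log axis) of the 4 ATP-sensitive potassium channel subunit genes on each GFP+ array (green) and RFP+ array (orange), with group means as black bars and the olfactory receptor 95th percentiles as a grey band. Kcnj8 and Abcc9 are above the band in GFP+ and below it in RFP+, whereas Kcnj11 and Abcc8 are brighter on every RFP+ array than on any GFP+ array.

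The pair of smooth muscle genes among the members did not follow the other 7. Acta2, which encodes smooth muscle alpha-actin, had intensities of 542, 435 and 412 in GFP+ progenitors, against 524, 542 and 657 in RFP+ neurons (log2 difference -0.30 ± 0.21). All 6 values were above the olfactory receptor 95th percentile of their array, and the groups overlapped. Tagln, which encodes transgelin (SM22-alpha), an actin-binding protein of smooth muscle, had 126, 186 and 111 in GFP+ progenitors, against 185, 165 and 139 in RFP+ neurons (log2 difference -0.21 ± 0.22). All 6 Tagln values were under the olfactory receptor 95th percentile.

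Actins are close to identical as proteins, and whether the Acta2 probe set also reads other actin genes was not tested. Of the 4 other actin genes measured, Actb had 18539, 17396 and 15794 in GFP+ progenitors, against 18162, 19341 and 17576 in RFP+ neurons (log2 difference -0.09 ± 0.20, adjusted p = 0.754). The skeletal muscle actin gene Acta1 was lower in GFP+ (-1.12 ± 0.20, adjusted p = 2.19e-04). The cardiac actin gene Actc1 was also lower (-0.68 ± 0.21, adjusted p = 0.0169), a call that ended without GFP+ replicate 1 (adjusted p = 0.0587) or RFP+ replicate 1 (adjusted p = 0.112). The enteric actin gene Actg2 did not pass (-0.30 ± 0.20, adjusted p = 0.275).

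Promoter windows are shown for Acta2 and for 2 separated members, Vtn and Abcc9, because smooth muscle contractile genes are known to be driven by serum response factor, which binds the CArG box. Windows run from 250 bases before to 50 after the annotated start and come from RefSeq (GRCm38.p6). Capitals mark a CArG box in which at most 1 base of the A/T core is C or G. The box reads the same way on both strands.
Acta2 (chr19:34255324-34255623, minus strand): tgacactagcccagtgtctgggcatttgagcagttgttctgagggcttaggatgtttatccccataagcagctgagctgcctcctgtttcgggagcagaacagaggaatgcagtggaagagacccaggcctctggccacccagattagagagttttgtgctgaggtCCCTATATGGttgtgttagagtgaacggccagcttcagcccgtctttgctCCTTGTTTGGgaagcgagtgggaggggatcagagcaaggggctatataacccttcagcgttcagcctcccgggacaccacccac
Vtn (chr11:78498870-78499169, plus strand): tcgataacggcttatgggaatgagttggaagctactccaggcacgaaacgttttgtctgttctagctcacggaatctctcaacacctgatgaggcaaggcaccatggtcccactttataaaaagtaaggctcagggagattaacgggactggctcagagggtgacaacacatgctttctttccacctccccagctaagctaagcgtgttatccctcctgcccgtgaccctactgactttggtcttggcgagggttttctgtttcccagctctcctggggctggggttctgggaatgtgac
Abcc9 (chr6:142702225-142702524, minus strand): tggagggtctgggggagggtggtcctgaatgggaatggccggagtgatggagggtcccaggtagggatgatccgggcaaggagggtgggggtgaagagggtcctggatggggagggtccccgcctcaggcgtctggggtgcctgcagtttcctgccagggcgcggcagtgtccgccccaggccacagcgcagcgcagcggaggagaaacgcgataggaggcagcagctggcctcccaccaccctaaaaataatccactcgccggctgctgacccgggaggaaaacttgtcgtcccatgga
The Acta2 window held 2 such boxes, CCCTATATGG starting 84 bases and CCTTGTTTGG starting 34 bases before the start, and the windows of Vtn and Abcc9 held none. Of the 7 members with a window examined, Acta2 alone had such a box, against 9.98% of all 32851 windows, and 0 of 7 had a strict CArG box, against 1.63% of all windows. Tagln and Pdgfrb were the members without a window. The relaxed form was added after the strict form was seen to be absent from the members. Of 19 windows of the smooth muscle contractile genes described below, 3 held a strict CArG box (15.8%). These were the windows of Myl9, Cnn2 and Vcl, which were all higher in GFP+. Whether a box bears on the difference between the groups was not tested. GGAATG, the core of the MCAT element (searched on both strands, and not overlapping the boxes in the windows shown), was in 3 of the 7 windows, those of Vtn, Abcc9 and Acta2, against 14.7% of all windows. GTGGGAA, a core bound by the Notch partner RBPJ and also searched on both strands, was in 0 of the 7 windows and in 6.38% of all windows. These matches are letters in a window and do not show binding.

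Other markers of mural cells, a list of 28 entries of which 26 were measured, were mostly higher in GFP+ progenitors: 16 passed as higher, 2 as lower and 8 did not pass, with a median log2 difference of 1.03. Mcam, a cell adhesion molecule, led them with intensities of 1684, 1028 and 1436 in GFP+ progenitors, against 129, 149 and 167 in RFP+ neurons (3.06 ± 0.22, adjusted p = 4.05e-09). Notch3, the Notch receptor of mural cells, had 1325, 1241 and 1213 in GFP+ progenitors, against 108, 188 and 162 in RFP+ neurons (2.95 ± 0.22, adjusted p = 5.44e-09). Foxc1, a forkhead factor that brain pericytes need and that also marks meningeal cells, had a difference of 3.02 ± 0.26 (adjusted p = 3.05e-08). Ndufa4l2, a mitochondrial protein gene induced by hypoxia, had one of 2.79 ± 0.23 (adjusted p = 1.97e-08). No measured gene of this list was at 0 on any array, and the summed intensity of the list was 11416 to 12211 in GFP+, against 6048 to 6851 in RFP+. Being above 0 does not show expression, as the olfactory receptor median was 57.45 to 66.74 on these arrays. Of the genes that passed as higher, Higd1b, Art3, Tbx18 and Foxd1 were under the olfactory receptor 95th percentile on every array. The pericyte marker Atp13a5 did not pass (0.10 ± 0.23, adjusted p = 0.777).

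The 2 genes of this list that were lower in GFP+ were Rgs4, a relative of Rgs5 that neurons also express, and Gucy1b1, a subunit of the nitric oxide receptor. Rgs4 had 511, 523 and 556 in GFP+ progenitors, against 1012, 1312 and 879 in RFP+ neurons (-0.97 ± 0.21, adjusted p = 0.00125). Gucy1b1 differed by -0.69 ± 0.21 (adjusted p = 0.0197), a call that ended without GFP+ replicate 2 (adjusted p = 0.0800) or RFP+ replicate 3 (adjusted p = 0.107). On a list of 10 other genes for regulators of G protein signalling, not all of the subfamily of Rgs5, 2 passed as higher and 3 as lower in GFP+. The median difference of this list was -0.002. Among those that passed, Rgs3 stood highest (2.49 ± 0.22, adjusted p = 4.36e-08) and Rgs17 lowest (-1.07 ± 0.20, adjusted p = 4.10e-04).

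Smooth muscle contractile genes gave a mixed picture. Of 20 measured, 11 passed as higher in GFP+ progenitors, 0 as lower and 9 did not pass (median log2 difference 0.68). The highest were Tagln2 (3.50 ± 0.22, adjusted p = 1.30e-09), Myl9 (2.86 ± 0.24, adjusted p = 2.65e-08), Cnn2 (2.32 ± 0.22, adjusted p = 8.51e-08) and Vcl (2.08 ± 0.22, adjusted p = 2.81e-07). Tagln2 and Cnn2 encode the widely expressed relatives of transgelin and calponin, Myl9 a regulatory myosin light chain and Vcl the adhesion protein vinculin, none of them restricted to smooth muscle. The other genes of the list were found on both sides of the threshold. Those higher in GFP+ included Smtn, which encodes smoothelin (1.73 ± 0.21, adjusted p = 2.52e-06), the myosin light chain kinase gene Mylk (1.66 ± 0.25, adjusted p = 2.55e-05) and the caldesmon gene Cald1 (1.14 ± 0.25, adjusted p = 0.00127). The tropomyosin gene Tpm2 was also higher (0.71 ± 0.22, adjusted p = 0.0176), a call that ended without GFP+ replicate 1 (adjusted p = 0.0855) or RFP+ replicate 3 (adjusted p = 0.0954). Others did not pass, among them Lmod1 (0.19 ± 0.20, adjusted p = 0.494), Synpo2 (0.08 ± 0.25, adjusted p = 0.847) and Actg2, given above. Pln did not pass either (-0.43 ± 0.30, adjusted p = 0.282), but passed as lower without GFP+ replicate 3 (adjusted p = 0.0482). Myh11, the smooth muscle myosin heavy chain gene, had 593, 392 and 366 in GFP+ progenitors, against 559, 513 and 525 in RFP+ neurons (-0.26 ± 0.22, adjusted p = 0.373). Cnn1, the smooth muscle calponin gene, had 36.6, 17.3 and 65.2 in GFP+ progenitors, against 31.9, 33.3 and 41.0 in RFP+ neurons (0.03 ± 0.26, adjusted p = 0.947). Des, the desmin gene, differed by 0.44 ± 0.22 (adjusted p = 0.142), but passed as higher without GFP+ replicate 3 (adjusted p = 0.0431).

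**Figure D3:**
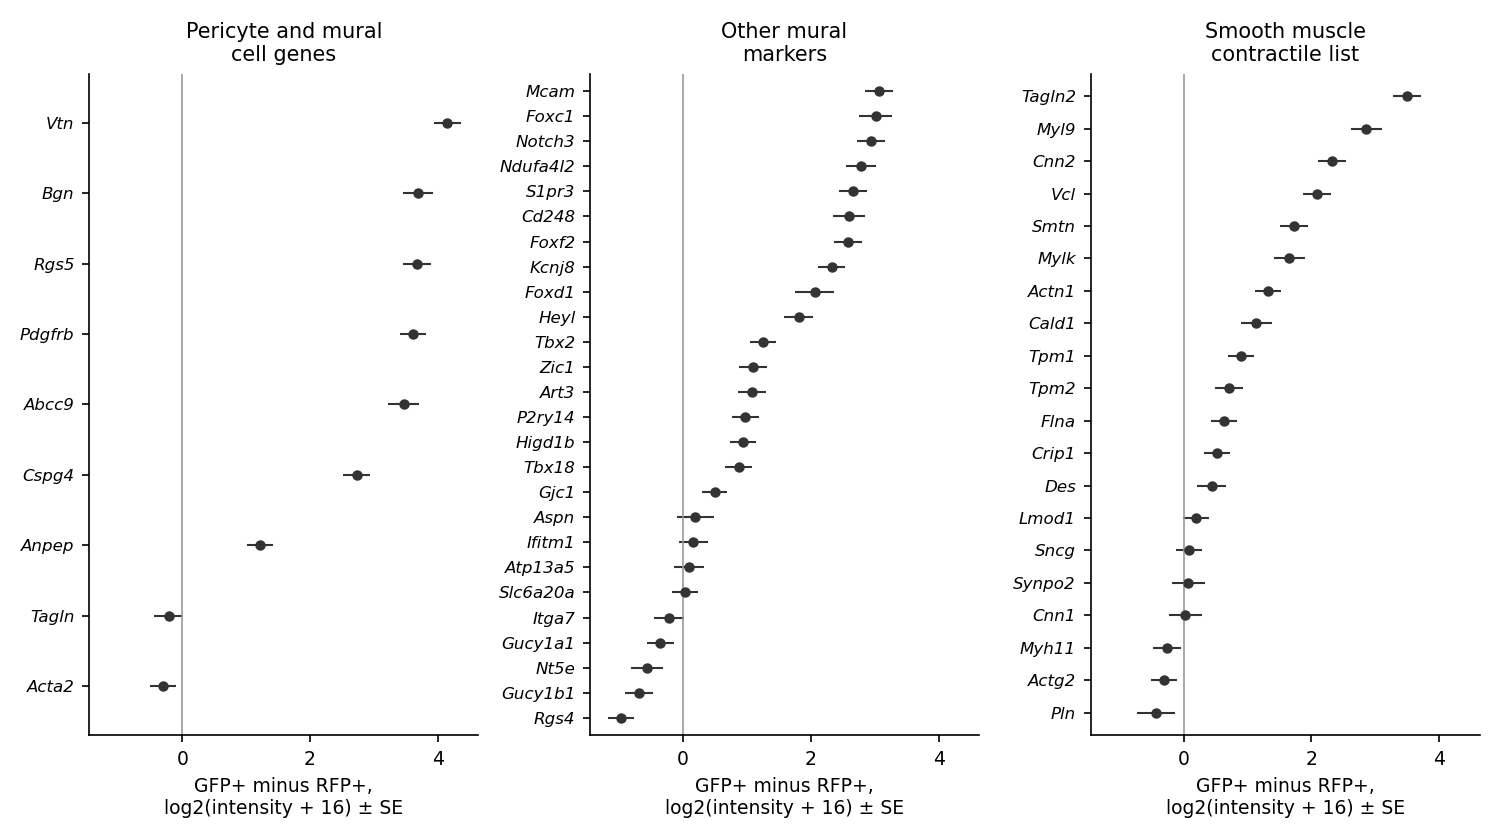
Log2 difference (GFP+ minus RFP+, x axis, log2(intensity + 16) scale) with SE for the 9 pericyte and mural cell genes, the 26 other mural markers measured and the 20 genes of the contractile list, sorted within each panel. Acta2, Tagln, Myh11 and Cnn1 lie near 0, Smtn and Mylk lie between 1 and 2, and Vtn, Bgn, Rgs5, Pdgfrb and Abcc9 lie above 3. The intensities of Tagln and Cnn1 were under the olfactory receptor 95th percentile on every array.

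The regulators of the contractile genes were likewise split. Of 8 genes for serum response factor and its cofactors, 2 passed as higher and 2 as lower in GFP+ progenitors. Myocd, the smooth muscle and heart coactivator myocardin, had 88.1, 42.3 and 16.6 in GFP+ progenitors, against 124, 152 and 125 in RFP+ neurons (-1.36 ± 0.30, adjusted p = 0.00138), all under the olfactory receptor 95th percentiles. Fhl2, a LIM-domain cofactor, was also lower (-1.27 ± 0.22, adjusted p = 1.33e-04). Tgfb1i1, a focal adhesion protein (0.99 ± 0.20, adjusted p = 5.95e-04), and the ternary complex factor Elk4 (0.96 ± 0.20, adjusted p = 8.52e-04) were higher. Srf itself did not pass (-0.32 ± 0.23, adjusted p = 0.314), nor did Elk1 (-0.33 ± 0.21, adjusted p = 0.252) or Mrtfb (0.44 ± 0.20, adjusted p = 0.111). Mrtfa did not pass either (-0.52 ± 0.22, adjusted p = 0.0763), but did in a fit blocked on replicate number (adjusted p = 0.0257), without RFP+ replicate 3 (adjusted p = 0.0397), without the dimmest 30% of genes (adjusted p = 0.0469) and with an intensity trend and robust moderation (adjusted p = 0.0382).

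Among the ligands that signal to Pdgfrb and its relatives, Pdgfb, the endothelial ligand that recruits pericytes, had 141, 309.7 and 349 in GFP+ progenitors, against 116, 113 and 86.4 in RFP+ neurons (1.14 ± 0.27, adjusted p = 0.00254), with its lowest GFP+ value on replicate 1. Pdgfra, the alpha receptor of oligodendrocyte precursors and fibroblasts, had 437, 373 and 320.2 in GFP+ progenitors, against 7.87, 29.99 and 26.2 in RFP+ neurons (3.44 ± 0.24, adjusted p = 3.66e-09). Pdgfc was higher in GFP+ (0.72 ± 0.20, adjusted p = 0.0103), a call that ended without RFP+ replicate 3 (adjusted p = 0.0507). Pdgfa was lower (-0.75 ± 0.22, adjusted p = 0.0144), a call that ended without GFP+ replicate 3 (adjusted p = 0.0608), RFP+ replicate 1 (adjusted p = 0.0888) or RFP+ replicate 2 (adjusted p = 0.0542). Pdgfrl (0.52 ± 0.21, adjusted p = 0.0679) and Pdgfd (-0.04 ± 0.30, adjusted p = 0.937) did not pass, although Pdgfrl did with quantile normalization (adjusted p = 0.0395).

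Of 18 genes measured for signals between endothelium and mural cells, 11 passed as higher in GFP+ progenitors and 2 as lower (median log2 difference 1.22). S1pr1, a lipid receptor of endothelium and neural progenitors, had 1042, 1599 and 1263 in GFP+ progenitors, against 146, 152 and 118 in RFP+ neurons (3.08 ± 0.21, adjusted p = 3.41e-09). Notch3 came next, and Eng, the TGF-beta coreceptor endoglin, had a difference of 2.70 ± 0.26 (adjusted p = 1.38e-07). Angpt1, the angiopoietin that pericytes give to the endothelial Tie receptors, went the other way, with 62.7, 60.2 and 47.1 in GFP+ progenitors, against 159, 153 and 125 in RFP+ neurons (-1.16 ± 0.20, adjusted p = 1.81e-04). Its RFP+ values were still under the olfactory receptor 95th percentiles.

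Vitronectin binds integrins that contain the alpha-v chain. Of 10 genes measured for its receptors and the plasminogen activator system, 5 passed as higher in GFP+ progenitors and 0 as lower (median log2 difference 0.81). Itgav, the alpha-v chain, had 843, 969.7 and 1087 in GFP+ progenitors, against 158, 153 and 161 in RFP+ neurons (2.50 ± 0.20, adjusted p = 1.24e-08). Its partner chains Itgb8 (2.35 ± 0.21, adjusted p = 4.47e-08) and Itgb5 (1.52 ± 0.22, adjusted p = 2.03e-05) were also higher, as was the fibronectin receptor chain Itga5 (2.10 ± 0.20, adjusted p = 1.21e-07). The partner chain Itgb3 did not pass (0.11 ± 0.21, adjusted p = 0.709). Most relatives of biglycan did not pass. Of 12 other small leucine-rich proteoglycan genes, 1 passed as higher (Ogn, 0.62 ± 0.22, adjusted p = 0.0369), 1 as lower (Podn, -1.02 ± 0.21, adjusted p = 8.71e-04) and 10 did not pass, with a median of -0.18. The call of Ogn ended without GFP+ replicate 2 or 3 or RFP+ replicate 2 or 3 (adjusted p = 0.0722, 0.0945, 0.116 and 0.157). Apart from Nyx and Podn, these proteoglycan genes were below 199, the lowest background guide of any array, on every array. Podn exceeded the guide only on RFP+ replicate 2 (208, against 207), and Ogn was under the olfactory receptor median on every array. Calls at such levels do not show whether these genes are expressed. Nyx, which was above the guide on every array, did not pass (-0.22 ± 0.22, adjusted p = 0.459).

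Several members are also made by cells other than mural cells, and marker lists of those cells are given beside them. Endothelial markers were higher in GFP+ as well: 19 of 23 measured passed as higher and 0 as lower (median log2 difference 1.79), with a summed intensity of 6008 to 13022.5 in GFP+, against 2758 to 3051 in RFP+. Emcn (2.84 ± 0.26, adjusted p = 7.17e-08), Tie1 (2.63 ± 0.33, adjusted p = 3.28e-06) and Pecam1 (2.60 ± 0.31, adjusted p = 1.44e-06), all surface proteins of endothelium, led the list. Of 18 fibroblast and meningeal markers 6 passed as higher and 0 as lower (median 0.25, summed intensity 6388 to 7822 in GFP+, against 5092 to 5982 in RFP+). Beside Pdgfra and Foxc1 these included the collagen genes Col3a1 (1.77 ± 0.29, adjusted p = 9.48e-05) and Col1a2 (1.36 ± 0.21, adjusted p = 3.60e-05). The other collagen genes of the list, Col1a1 (0.23 ± 0.21, adjusted p = 0.435), Col6a1 (-0.11 ± 0.21, adjusted p = 0.728) and Col6a2 (0.39 ± 0.21, adjusted p = 0.178), did not pass. The fibroblast proteoglycan genes Dcn (-0.05 ± 0.24, adjusted p = 0.892) and Lum (0.13 ± 0.26, adjusted p = 0.739) did not pass either. Both were below 199, the lowest background guide of any array, on every array. Of 10 oligodendrocyte precursor markers, with Cspg4 and Pdgfra among them, 6 passed as higher and 0 as lower (median 1.03, summed intensity 4244.5 to 4769 in GFP+, against 3198 to 4079 in RFP+), and Olig2, a transcription factor of that lineage and of some progenitors, had 349, 481 and 251 in GFP+ progenitors, against 1.01, 25.2 and 14.8 in RFP+ neurons (3.71 ± 0.28, adjusted p = 7.65e-09). Of 14 microglia and macrophage markers 0 passed as higher and 1 as lower (Trem2, -0.75 ± 0.20, adjusted p = 0.00686), with a summed intensity of 2264 to 2724.5 in GFP+, against 2319 to 2846 in RFP+. No measured marker of these 4 lists was at 0 on any array, which does not show expression, as the olfactory receptor median was 57.45 to 66.74. In limma at an unadjusted p under 0.05, the counts of 0 in these and the preceding lists were again 0, except that 1 oligodendrocyte precursor marker was lower in GFP+. Some genes stand on more than 1 list, so the counts of the lists are not independent. Foxc1 is on the mural and fibroblast lists, Aspn on the mural and proteoglycan lists, and Pdgfra on the PDGF, fibroblast and oligodendrocyte precursor lists. Tek and Tie1 are on the endothelial list and that of signals between endothelium and mural cells, and Notch3 on the latter and the mural list. Kcnj8 and Rgs4 are also on the mural list, Actg2 on the contractile and actin lists, and Dcn and Lum on the proteoglycan and fibroblast lists. The part that such cells have in the members' levels was not tested.

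Mural and endothelial genes were both higher in GFP+, and they differed most among the GFP+ arrays on replicate 1. Endothelial markers were low on GFP+ replicate 1, where 20 of 23 had their lowest GFP+ value and the list's median lay at -1.18 from the mean of the other two arrays on the log2 scale. Mural genes were not low there: 1 of the 9 members (Vtn) and 8 of the 26 other mural markers had their lowest GFP+ value on replicate 1, with medians of 0.15 and 0.10 above the other two arrays. The members were lowest on GFP+ replicate 2 in 5 of 9 cases (Rgs5, Pdgfrb, Bgn, Anpep and Abcc9), with a median of -0.36 against the other two arrays, while the endothelial median there was 0.20. On GFP+ replicate 3 the members and the endothelial list ran the same way, with medians of 0.16 over the 9 members and of 0.95 over the endothelial list. There 5 of the 9 members (Vtn, Rgs5, Bgn, Anpep and Abcc9) were brightest, while 3 (Pdgfrb, Cspg4 and Acta2) were brightest on replicate 1 and Tagln on replicate 2. The 26 other mural markers had medians of -0.05 on GFP+ replicate 2 and 0.001 on GFP+ replicate 3. Among the endothelial genes, Pecam1 had 201, 407 and 695 and Kdr, the main receptor for vascular endothelial growth factor, had 239.5, 697 and 1052 on GFP+ replicates 1, 2 and 3. Without GFP+ replicate 1, 7 members, 16 other mural markers and 20 endothelial markers passed as higher. These comparisons of single arrays have no replicate and no test.

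**Figure D4:**
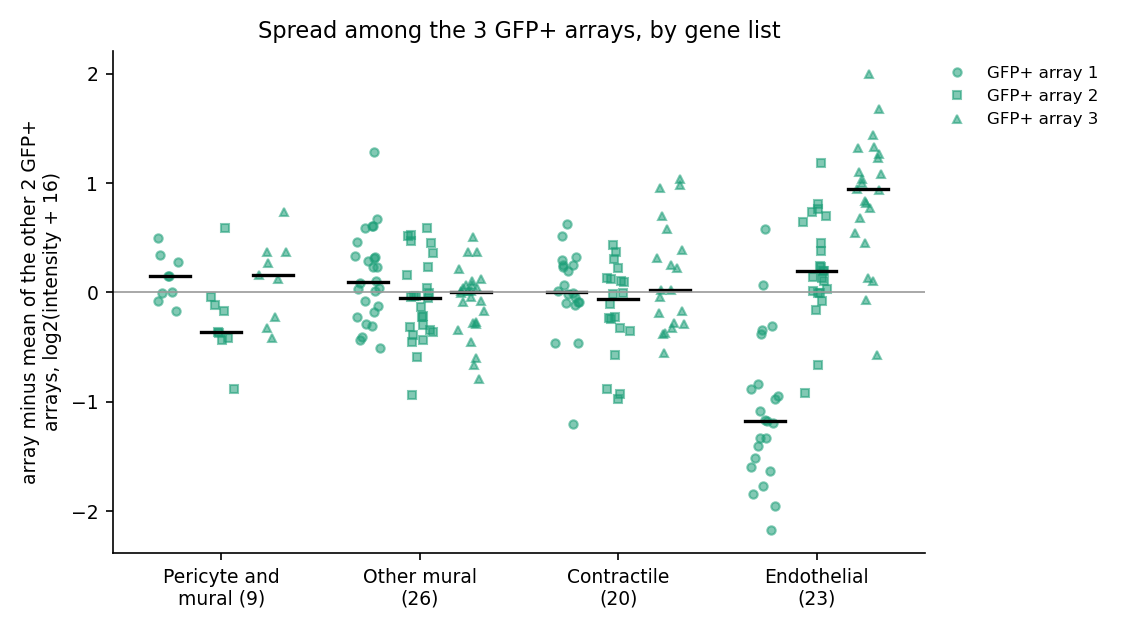
Each point is 1 gene on 1 GFP+ array, plotted as its log2(intensity + 16) minus the mean of the other two GFP+ arrays (y axis), for 4 gene lists (x axis, number of genes in brackets), with the list median as a black bar. The endothelial genes spread widely, with replicate 1 at a median of -1.18, whereas the medians of the mural and contractile lists stay between -0.36 and 0.16.

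The mean profile of the 9 members over the 6 arrays was set against all other genes. The genes most like it were Acsf2, Gpt2, Etl4, Cdc25b and Rell1 (Pearson r of 0.99923 to 0.99947 over 6 arrays), and 2253 genes had an r of 0.9 or more. The profile is dominated by the difference between the groups, so such values are a description.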

How the data were processed

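Total RNA of 3 GFP+ and 3 RFP+ sorted samples was hybridised to Affymetrix whole-transcript arrays. The authors deposited one linear intensity per probe set and array, made with the Affymetrix Expression Console per the submitters' processing notes; its version, background correction and normalization are not given in the sources used here. Array medians were 210.3 to 221, and the number of arrays limits the precision. Of 35557 probe sets, 21789 carried 1 gene symbol, 1621 several and 12147 were unnamed here; 21698 matched a RefSeq gene by Entrez ID. The brightest probe set (mean over 6 arrays) was kept for each of 19938 genes. Log2(intensity + 16) was tested with limma 3.58.1 in R 4.3.3 (lmFit, eBayes, two-sided), with p-values of the GFP+ minus RFP+ difference adjusted by Benjamini-Hochberg across all genes; 5978 were under 0.05. The code was tested on simulated data. Figures used matplotlib 3.10.9.

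The members and the other gene lists were chosen with earlier results of these data known. Genes named beside the members are up to 4 of each list with the largest passing difference in its majority direction, the largest passing the other way, and all measured subunit, PDGF, actin and serum response factor genes. Gucy1b1, Smtn, Mylk, Cald1, Tpm2, Myh11, Cnn1, Des, Lmod1, Synpo2, Pln, Itgb3, Dcn, Lum, Col1a1, Col6a1 and Col6a2 were named after their values were seen. The same holds for Higd1b, Art3, Tbx18, Foxd1, Atp13a5, Nyx, Igfbp2 and Ptprz1. The list entries not measured are not analysed here.

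The titles carry replicate numbers. As a check of pairing, deviations from the group means correlated across genes at 0.204, 0.288 and 0.361 for same-numbered arrays of the 2 groups, and at -0.266 to 0.00416 between arrays of different numbers. The fit without a block was kept as the main one and the block was run as an alternative, beside quantile normalization, median centring, an offset of 1, a filter on the dimmest 30%, averaged probe sets, an intensity trend with robust moderation, and leaving out single arrays or both arrays numbered 1.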

Additional observations from a re-analysis of the deposited data

How the results depend on the processing

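In the fit with a replicate block, 7 members passed, as without it, 7371 of all genes passed, against 5978 without it, and of 190 other list genes 9 newly passed and 0 were lost. Mrtfa and Ptprz1 were the only genes named in the text whose calls the block changed. Under the 14 alternatives 6 or 7 members passed as higher. The 6 came without the dimmest 30% of genes, where Cspg4 was left out before the test. The median member difference of 3.47 became 3.75 with log2(intensity + 1), and 3.22 to 3.76 when 1 array was left out (3.22 without GFP+ replicate 3, 3.76 without GFP+ replicate 2). Leaving out 1 array gave 17 to 18 other mural, 10 to 12 contractile, 18 to 20 endothelial, 5 to 6 fibroblast, 3 to 4 PDGF and 12 to 13 recruitment genes past the threshold, and 4506 to 5566 of all genes. Without both arrays numbered 1, 3850 of all genes passed, a setting that leaves 2 arrays in each group. The differences of Acta2 and Tagln stayed below 0 under the 14 alternatives, at -0.48 to -0.21 for Acta2 and -0.41 to -0.07 for Tagln, and those of the 7 other members stayed above 0 wherever they were tested. Since the same comparison on these arrays chose the members, nothing is read from their counts or directions under the alternatives. The intensities of most members in RFP+ neurons lie in the background range of the array, which limits the size of their folds. With an intensity trend and robust moderation 14 endothelial genes passed, against 19, with Kdr (adjusted p = 0.0568), Cdh5 (adjusted p = 0.0779), Cldn5 (adjusted p = 0.0984), Cd34 (adjusted p = 0.130) and Sox18 (adjusted p = 0.114) lost, as was Ogn (adjusted p = 0.0936). Without the dimmest 30% of genes, 13 of the 14 endothelial genes still tested passed. Of the 17 other mural markers still tested there, 14 passed, 12 as higher and 2 as lower.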
